A study of Mus musculus with 4 samples.

Results

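Spermatid and sperm structure genes code for the parts of the haploid male germ cell, namely its condensed chromatin, acrosome, perinuclear theca, flagellum, surface proteins, sperm-type glycolytic enzymes, ion channels and kinases, together with regulators of these genes. Their expression was followed in TBV2 mouse embryonic stem cells (ESC), a line of the 129/SvP strain. A list of 42 such genes was used, and 41 of them were among the 28250 genes with deposited values. Izumo1 had no deposited value. The list was put together by gene function, but Spz1 and Cypt3 had been chosen by their rise with MS-275 in these same libraries. The changes of the members are therefore given as a description, and the number past a threshold stands only beside the same share of all genes. Polyadenylated RNA had been sequenced in 4 libraries after 24 h of culture, 2 with solvent alone and 2 in the presence of MS-275 (Entinostat) at 5 µM, an inhibitor of class I histone deacetylases. The labels describe the TBV2 cells as maintained on a feeder layer with LIF and cultured on gelatin-coated plates, and do not say whether feeder cells were present during the treatment. They name no genetic difference between the groups. Each condition has a library labelled a duplicate, and no source says that it came from a separate culture, so that p-values measure only the spread between these samples, which may be technical.

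In the testis these genes are mostly switched on after meiosis. In the last phase of sperm formation histones give way first to transition proteins and then to protamines, the acrosome spreads over the nucleus, and a flagellum is built around an axoneme that is wrapped by outer dense fibres and a fibrous sheath. The transcription factor CREM, which acts through cyclic AMP response elements, is known as a switch for many of them.

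Promoter windows of 35 members were found in the RefSeq table for GRCm38.p6, each holding 250 bases before and 50 bases after an annotated start. They were searched on both strands for TGACGTCA, the palindromic cyclic AMP response element, for TGACG, its shorter form, which the full element contains, and for TATAAA. The full element was in 2 members (5.71%, against 1.88% of 27025 genes), the shorter form in 13 (37.1%, against 21% of all genes) and TATAAA in 2 (5.71%, against 14.2%). Among 76 other spermatid genes the 3 shares were 2.63%, 11.8% and 10.5%. The median GC content was 54% in the members and 52.7% over all genes, with a median of 7 CpG dinucleotides in both. The windows of 5 members are shown because the values below turn on these genes, with matches in capitals and the strand that of the gene. Those of Spz1 and Cypt3 have no match, that of Spag6 has the full element, and those of Ldhc and Spaca1 have the shorter form. The counts and the windows shown use the first listed window of each gene. A second Ldhc window has no match and 3 CpG dinucleotides.
Spz1 promoter window, chr13:92576183-92576482, minus strand: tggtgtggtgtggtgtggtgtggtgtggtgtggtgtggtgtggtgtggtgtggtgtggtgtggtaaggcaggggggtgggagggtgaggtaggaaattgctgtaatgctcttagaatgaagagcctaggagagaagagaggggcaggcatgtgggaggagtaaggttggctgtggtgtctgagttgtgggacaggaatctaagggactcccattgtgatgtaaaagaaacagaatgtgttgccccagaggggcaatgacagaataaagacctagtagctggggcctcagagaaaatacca
Cypt3 promoter window, chrX:153558343-153558642, plus strand: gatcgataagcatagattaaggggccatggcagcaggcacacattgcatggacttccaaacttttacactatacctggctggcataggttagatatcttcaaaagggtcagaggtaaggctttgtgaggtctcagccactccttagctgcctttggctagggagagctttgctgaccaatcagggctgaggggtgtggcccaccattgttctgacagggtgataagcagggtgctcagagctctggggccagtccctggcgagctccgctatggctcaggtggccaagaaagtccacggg
Spag6 promoter window, chr16:16829314-16829613, minus strand: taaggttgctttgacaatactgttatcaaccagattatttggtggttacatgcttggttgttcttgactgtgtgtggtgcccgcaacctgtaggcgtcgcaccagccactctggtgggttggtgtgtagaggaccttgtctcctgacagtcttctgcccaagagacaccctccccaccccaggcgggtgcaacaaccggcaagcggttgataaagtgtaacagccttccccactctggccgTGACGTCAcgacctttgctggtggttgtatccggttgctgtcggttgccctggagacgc
Ldhc promoter window, chr7:46861013-46861312, plus strand: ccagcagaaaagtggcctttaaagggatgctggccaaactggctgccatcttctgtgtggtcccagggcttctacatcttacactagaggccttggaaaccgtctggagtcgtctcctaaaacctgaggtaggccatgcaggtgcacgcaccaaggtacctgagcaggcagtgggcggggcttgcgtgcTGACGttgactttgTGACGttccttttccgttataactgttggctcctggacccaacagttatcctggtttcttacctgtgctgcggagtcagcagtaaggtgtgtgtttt
Spaca1 promoter window, chr4:34050016-34050315, minus strand: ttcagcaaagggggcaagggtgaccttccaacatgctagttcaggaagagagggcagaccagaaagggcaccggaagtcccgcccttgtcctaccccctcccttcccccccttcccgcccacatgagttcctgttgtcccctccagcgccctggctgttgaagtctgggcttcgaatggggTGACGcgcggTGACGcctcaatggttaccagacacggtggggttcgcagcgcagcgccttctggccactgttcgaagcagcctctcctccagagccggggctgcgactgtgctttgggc
The Spz1 window held 0 CpG dinucleotides and the Cypt3 window 4, while the windows of Ldhc, Spag6 and Spaca1 held 9, 12 and 16. A match describes these letters only. The Spz1 window was taken at the annotated start, while its alignments, described below, began further upstream. The gene listed as Spag6 is called Spag6l in the GRCm38.p6 table and has a close paralog, so its value is uncertain.

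The libraries held between 9785619 and 23467935 alignments of 36 bases. In 1 library of each condition 53.2% and 54.4% of the alignments repeated a position already taken, and in the other libraries none did. The deposited values behaved as alignments per exon length. Over genes with 1 transcript and at least 20 alignments, the values of each library were within 10% of that quantity for 55.4% to 60.5% of genes when set against the alignments deposited for the other replicate of its condition, and for 8.83% to 11.9% when set against its own. The alignments given below for a library are those that match its values. On a transcript of 1000 bases a single alignment was worth between 0.000426 and 0.00102 in the deposited unit. The summed values were 2489.6 and 3628.5 with solvent and 2493.3 and 4358.6 with MS-275. Lists of cell type markers were summed as well, and their part in the changes below was not tested. The pluripotent markers summed to 5.08 and 22.2 with solvent and to 4.26 and 13.4 with MS-275, with 2 of 8 lower in the fit with the replicate block. In that fit, also used for the marker counts that follow, 21.0% of all genes tested were higher and 6.46% lower. The feeder fibroblast markers summed to 0.263 and 0.249 and then to 0.502 and 0.593, with 5 of 8 higher. The meiotic germ cell markers summed to 1.44 and 1.47 and then to 1.94 and 3.24, with 3 of 8 higher and 1 lower. The testis somatic cell markers summed to 0.141 and 0.107 and then to 0.224 and 0.157, with 2 of the 7 listed higher. Both MS-275 values lay above both solvent values in 4 of these 7, against 26.1% of all genes. Of these 7, only Fshr was listed at 0 in all 4 libraries.

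Most of the 41 members were weakly expressed in ESC. The median over the members of the mean value was 0.00186 with solvent and 0.00594 with MS-275, against 0.00823 and 0.0148 over all genes. Only 19 members reached 0.01 in any library and 22 did not, and 19 had under 20 alignments over the 4 libraries together. Prm2 and Catsper1 were listed at 0 everywhere. A filter of at least 0.001 in at least 2 libraries was passed by 36 members, 8 of them only through the MS-275 libraries, so that these 8 had to be higher there. They were Prm1, Akap4, Acr, Spaca3, Adam3, Spata4, Spata18 and Tekt4. Tssk2, Pgk2 and Acrv1 failed it along with the 2 genes at 0. Fewer cells that express a gene and less RNA of it per cell cannot be told apart in bulk RNA.

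**Figure D1:**
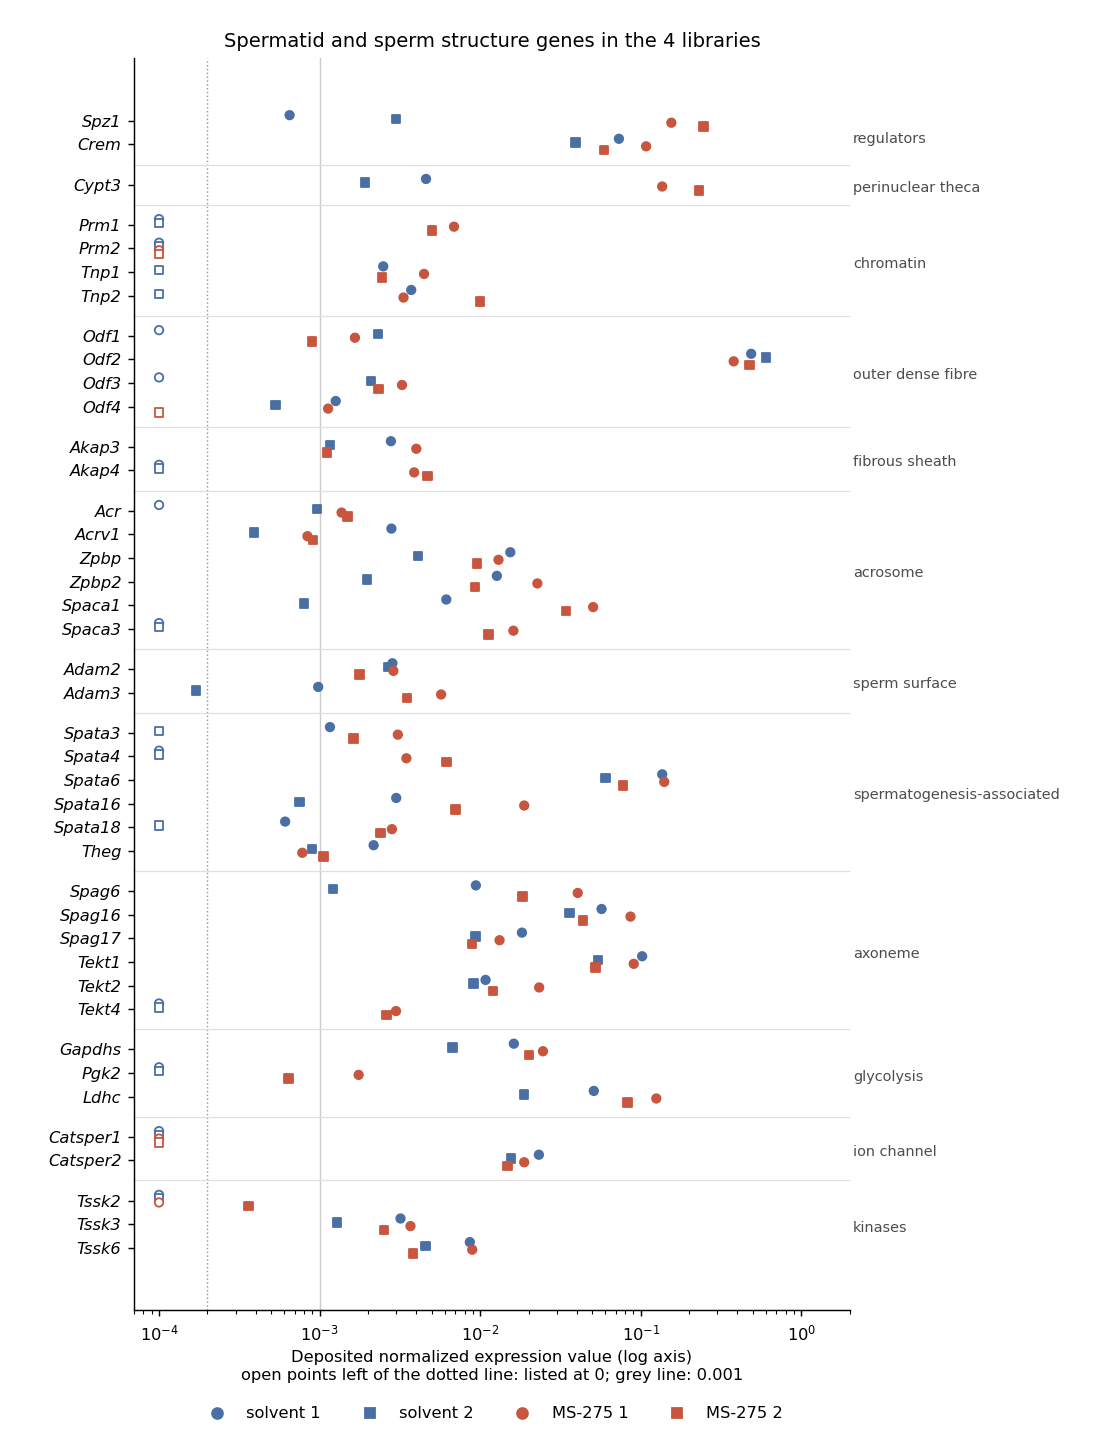
Deposited value of each of the 41 members (log axis) in the 4 libraries, solvent in blue and MS-275 in red, replicate 1 as circles and replicate 2 as squares, grouped by role, with values of 0 drawn as open points at the left. Spz1 and Cypt3 lie at 0.0046 or less with solvent and at 0.136 or more with MS-275, while Crem, Spata6, Tekt1 and Spag16 overlap between the conditions. Odf2 lies at 0.487 or more with solvent and at 0.475 or less with MS-275.

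Both MS-275 values lay above both solvent values in 19 of 41 members, a share of 46.3% against 26.1% of all genes, and below them in 1 (Odf2), against 9.09% of all genes. Without Spz1 and Cypt3 the count was 17 of 39 (43.6%). With values under 0.001 set to 0.001, MS-275 was 2-fold or more above solvent in pair 1 as well as in pair 2 for 13 members (31.7%, against 11.5% of all genes), and that far below it for 0 (against 2.04%). Listed at 0 in both solvent libraries and above 0 in both MS-275 libraries were 6 members, Prm1, Akap4, Spaca3, Spata4, Tekt4 and Pgk2, against 3.14% of all genes. The rule that chose Spz1 and Cypt3 used this contrast, so nothing is read from these shares. In the limma fit of log2(value + 0.005) without a block, 0 of the 36 members were past an adjusted p of 0.05, as against 0.00492% of all genes (1 gene). An unadjusted p under 0.05 was reached by 13 members, and by 3538 of all 20336 genes tested. The same test on counts of distinct alignment positions, with limma-voom, called 7 of 21, all higher. Over all 17923 genes in that fit, 2594 were called higher and 884 lower. Of these 7 members, Spz1 and Cypt3 had been chosen by this contrast. Cypt3, Spaca1, Spaca3 and Spata16 reached the filter of 10 positions only with MS-275 and so had to be higher. With the replicate number as a block, 13 of 36 members were called higher, against 21.0% of all genes, and 0 were called lower, against 6.46%. Of these 13, Spz1 and Cypt3 had been chosen by this contrast and 6 had passed the filter only through MS-275. Without both kinds, 5 of 26 members were called higher, a share of 19.2% against 19.3% of all genes that passed the filter otherwise, in a count chosen after the data were seen. The median change of the members was 0.49 on the log2 scale (0.48 in pair 1 and 0.55 in pair 2), against 0.20 over all genes tested, and 0.43 without Spz1 and Cypt3. Scaling by median ratios moved the median of all genes to -0.01 and the share of higher calls in the fit with the block from 76.5% to 54.1%, and 13 members were called higher under it, with Tnp2 in place of Zpbp2.

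Spz1, a basic helix-loop-helix leucine zipper factor of spermatogenic cells, had values of 0.00065 and 0.003 with solvent and 0.155 and 0.246 with MS-275. These rest on 1 and 11 alignments with solvent and on 272 and 814 with MS-275. All MS-275 values were far above all solvent values, by 4.90 on the log2(value + 0.005) scale (SE 0.615 without the block and 0.293 with it, n = 2 and 2). The ratio of distinct positions, relative to all positions in the library, was 244 in pair 1, with an exact binomial 95% interval from 43.4 to 9670, and 49.1 in pair 2, with an interval from 26.4 to 103. These intervals cover counting error only. Spz1 was chosen by its rise in these same libraries, so they are no test of that rise. The other regulator, Crem, is the cyclic AMP response element modulator named above. Its values were 0.0731 and 0.0393 with solvent and 0.108 and 0.059 with MS-275. They overlapped between the conditions, differed between the replicates of each, and were higher with MS-275 by 0.53 on the log2 scale in both pairs (SE 0.528). Of the distinct positions within the Crem gene, 53.7% lay on no annotated exon.

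The alignments at Spz1 did not stop at the annotated gene. In mm9 the gene is a single exon of 1602 bases on the minus strand at chr13:93344586-93346187. The annotated exon held 1 and 10 distinct positions with solvent and 272 and 408 with MS-275. The 6500 bases before its start, at chr13:93346188-93352687, held 21 and 51 with solvent and 512 and 1005 with MS-275, although no gene of the GENCODE M1 annotation has an exon there. Every 500-base bin from 6500 bases before the start to 2000 bases after it was filled in both MS-275 libraries. The run began 6247 bases before the start and then broke off, with 0 and 3 positions with MS-275 in the next 6500 bases. Its density upstream, 78.8 and 155 positions per kb, was lower than on the annotated exon, 170 and 255 per kb. At its other side it thinned out with the annotated gene, and the 6500 bases beyond held 9 and 6 positions with MS-275 and 0 with solvent. The solvent libraries had few positions over the same run (3.23 and 7.85 per kb upstream), and in solvent 2 these also filled every bin of it. Whether a read can be placed matters at the outer edge. Within the 6500 bases before the start 92.1% of the 36-base words occur once in the mm9 genome, but in the 500 bases just outside the first aligned base only 7% do, so the true beginning of the run cannot be seen in these alignments.

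**Figure D2:**
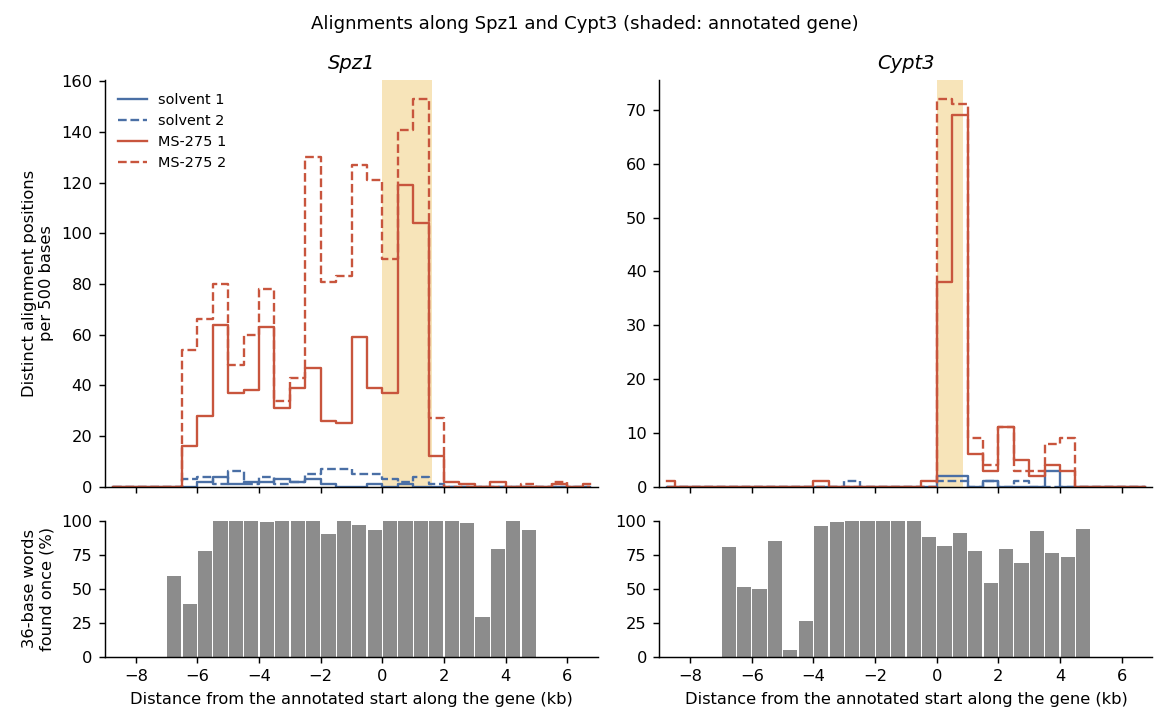
Distinct alignment positions per 500 bases (upper panels) along Spz1 and Cypt3 against the distance in kb from the annotated start, solvent in blue and MS-275 in red, replicate 1 solid and replicate 2 dashed, with the annotated gene shaded; lower panels give the percentage of 36-base words that occur once in mm9. At Spz1 the MS-275 lines stay up for 6247 bases before the start and drop where few words occur once, and at Cypt3 they rise at the start.

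Cypt3 codes for a cysteine-rich protein of the perinuclear theca, the layer between the sperm nucleus and the acrosome. Its values were 0.0046 and 0.00192 with solvent and 0.136 and 0.23 with MS-275, resting on 3 and 3 and on 103 and 311 alignments. Both MS-275 libraries were above both solvent libraries, by 4.48 on the log2 scale (SE 0.612 without and 0.327 with the block). The ratio of distinct positions was 30.8 in pair 1 (interval from 10.2 to 152) and 83.6 in pair 2 (from 22.7 to 697). Cypt3 too was chosen by its rise, so these intervals do not test it. In mm9 the gene lies on the plus strand at chrX:149993136-149993972. It differed from Spz1 in the place of its alignments, since the 6500 bases before the start held only 2 and 0 distinct positions with MS-275. The 3500 bases after its end held 36 and 47 with MS-275 and 4 and 2 with solvent, at 10.3 and 13.4 per kb against 125 and 168 per kb on the gene.

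The genes next to them had smaller differences. Beside Spz1, Zfyve16 was higher by 0.84 (adjusted p from limma 0.417 without and 0.0125 with the block) and Serinc5 by 0.10 (0.96 and 0.786). Further out, Fam151b was higher by 0.77 (0.658 and 0.0835), and Thbs4, which codes for a thrombospondin of the extracellular matrix, was higher by 2.07 (0.0848 and 0.000121), with 0.0033 and 0.00252 in solvent and 0.0321 and 0.0248 in MS-275. Beside Cypt3, Ubqln2 differed by 0.27 (0.826 and 0.387) and Kctd12b by -0.10 (0.967 and 0.852). Further out, Klf8 differed by -0.07 (0.983 and 0.864) and Spin2 by 0.89 (0.535 and 0.0367).

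The 4 chromatin genes among the members, whose products pack the sperm DNA, had low values. Prm1, a protamine, was listed at 0 in both solvent libraries and at 0.00687 and 0.005 with MS-275, on 3 and 4 alignments, with 1 alignment in solvent 2. Prm2 was listed at 0 in all 4 libraries. The transition protein gene Tnp1 had 0.00249 and 0 with solvent and 0.00447 and 0.00244 with MS-275, on at most 3 alignments in any library. Tnp2 had 0.00372 and 0 and then 0.00333 and 0.01, the last on 11 alignments, and it moved by -0.07 in pair 1 and 1.58 in pair 2. So neither transition protein gene separated the conditions, and the highest value of these 4 genes was 0.01.

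Of 6 acrosome genes, Spaca1, Spaca3 and Acr had both MS-275 values above both solvent values, against 26.1% of all genes. Spaca3 and Acr passed the filter only through MS-275 and so had to be higher. Spaca1, a membrane protein of the acrosome, had 0.00615 and 0.0008 with solvent and 0.0505 and 0.0341 with MS-275, a change of 2.53 (SE 0.62 without and 0.31 with the block) on 5 and 2 and on 65 and 92 alignments. Spaca3, a lysozyme-like acrosomal protein, was listed at 0 in both solvent libraries and at 0.0161 and 0.0113 with MS-275, each on 14 alignments. Acr, which codes for the protease acrosin, had at most 0.00149, on at most 4 alignments in any library. The zona pellucida binding protein genes behaved differently from each other: Zpbp2 had 0.0127 and 0.00197 with solvent and 0.0227 and 0.00929 with MS-275, higher in both pairs (0.65 and 1.04) with overlapping values. Zpbp had 0.0154 and 0.00409 and then 0.013 and 0.00958, lower in pair 1 and higher in pair 2. Of the distinct positions in the Zpbp gene 67.2% lay outside annotated exons. Acrv1, an acrosomal vesicle protein, had values from 0.00039 to 0.0028 with no separation.

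The outer dense fibre genes included the most strongly expressed member. Odf2, also known as a component of the centrosome of dividing cells, had 0.487 and 0.603 with solvent and 0.379 and 0.475 with MS-275. All MS-275 values were below all solvent values, by -0.35 on the log2 scale (SE 0.482 without and 0.246 with the block), and Odf2 was the only member of this kind. Odf1, Odf3 and Odf4 stayed at 0.00326 or less. Of the fibrous sheath genes, which code for anchors of protein kinase A, Akap4 was listed at 0 in both solvent libraries and at 0.00388 and 0.00469 with MS-275, on 9 and 18 alignments. Akap3 had between 0.00111 and 0.004 in all libraries, with overlap.

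The axoneme genes were split. Spag6, a protein of the central apparatus, had 0.0094 and 0.00121 with solvent and 0.0405 and 0.0183 with MS-275, a change of 1.78 (SE 0.649 without and 0.303 with the block) on 21 and 7 and on 112 and 76 alignments. Tekt2, one of the tektins that form filaments in the microtubule doublets, had 0.0108 and 0.00911 and then 0.0233 and 0.012, a small separation, and its exons overlap those of a gene on the opposite strand. Tekt4 was listed at 0 in both solvent libraries and at 0.00299 and 0.00261 with MS-275. The remaining genes of the axoneme were already expressed with solvent and overlapped between the conditions. Spag16 had 0.057 and 0.036 with solvent and 0.0863 and 0.0436 with MS-275. Spag17 had 0.0182 and 0.00938 and then 0.0132 and 0.00888, with 82.6% of the positions in its gene on no exon. Tekt1 had 0.102 and 0.0542 and then 0.0904 and 0.0522. In all of these replicate 1 was higher than replicate 2 in both conditions.

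Among the genes of sperm-type glycolysis, Ldhc, the testis lactate dehydrogenase, had 0.051 and 0.0188 with solvent and 0.125 and 0.0826 with MS-275. The groups did not overlap, and the change was 1.55 (SE 0.574 without and 0.271 with the block) on 66 and 55 and on 167 and 202 alignments. Gapdhs, the sperm glyceraldehyde phosphate dehydrogenase, had 0.0162 and 0.00673 and then 0.0246 and 0.0202, also without overlap and higher by 0.79 (SE 0.618), but 83.7% of the positions in its gene were on no annotated exon. Pgk2, the sperm phosphoglycerate kinase, was listed at 0 with solvent and at 0.00175 and 0.00064 with MS-275, on 3 and 2 alignments.

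Among the spermatogenesis-associated genes, Spata6, which is needed for the connecting piece of head and tail, had 0.136 and 0.0602 with solvent and 0.14 and 0.0778 with MS-275, on between 333 and 350 alignments in each library, with a difference of 0.19 (SE 0.504). Spata16, needed for the acrosome, had 0.003 and 0.00075 and then 0.0188 and 0.00704, without overlap and higher by 1.32 (SE 0.437 without and 0.27 with the block), with 65.7% of positions off exons. Spata3, Spata4 and Spata18 also did not overlap, all at 0.00615 or less. Spata4 and Spata18 passed the filter only through MS-275 and so had to be higher. Theg had 0.00078 to 0.00217 in the 4 libraries. Of the Adam genes of the sperm surface, Adam3 had 0.00098 and 0.00017 with solvent and 0.00571 and 0.00349 with MS-275, on 8 and 7 alignments. Adam2 had 0.00177 to 0.00288 with overlap. In Adam3 77.3% and in Adam2 79% of the positions were on no exon. Izumo1, the sperm protein that binds the egg receptor Juno, has no deposited value. Its exons, which overlap those of Rasip1 in part, held 44 and 77 alignments with solvent and 74 and 118 with MS-275. Catsper2, a pore-forming subunit of the sperm calcium channel, had 0.0232 and 0.0156 with solvent and 0.0188 and 0.0148 with MS-275. The testis-specific kinase genes Tssk2, Tssk3 and Tssk6 had at most 0.00892 and overlapped between the conditions.

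**Figure D3:**
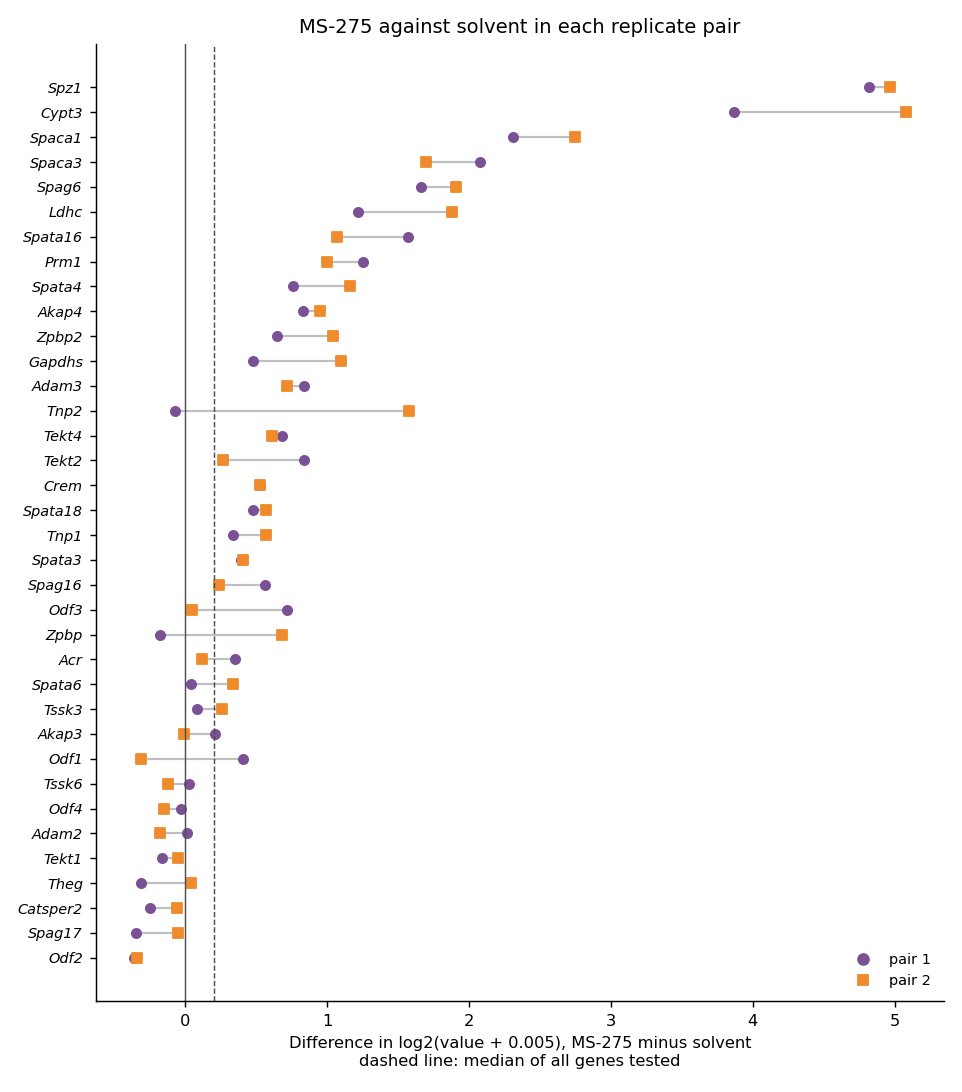
Difference in log2(value + 0.005) between MS-275 and solvent for the 36 members that passed the filter, in replicate pair 1 (circles) and pair 2 (squares), ordered by their mean; the dashed line is the median of all genes tested, 0.20. Spz1 and Cypt3 lie at 3.87 or more in both pairs, Spaca1, Spaca3, Spag6, Ldhc and Spata16 lie above 1 in both, and Odf2, the lowest, lies at -0.36 and -0.34. Spz1 and Cypt3 were chosen by their rise. Prm1, Akap4, Acr, Spaca3, Adam3, Spata4, Spata18 and Tekt4 passed the filter only through MS-275 and so had to be higher.

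Spermatid genes outside the list were tested with the same fit, as 99 further genes of the same kinds, 95 of which had values. Both MS-275 values were above both solvent values in 47 (49.5%, against 26.1% of all genes) and below them in 1 (against 9.09% of all genes). In the limma fit without a block 0 of the 73 that passed the filter were called. An unadjusted p under 0.05 was reached by 21 of them, and by 3538 of all 20336 genes tested. With limma-voom on distinct positions 19 further genes were called higher, against 2594 of 17923 over all genes. These included Cypt2, Fscn3, Lyzl4 and Meig1, which reached the filter of 10 positions only with MS-275 and so had to be higher. With the replicate block 28 of 73 were called higher (38.4%, against 21.0% of all genes) and 0 lower. Of the 73, 10 had passed the filter only through MS-275 and so had to be higher, and 7 of these 10 were among the 28. Without them 21 of 63 were called higher (33.3%, against 19.3% of all genes that passed otherwise). The median change was 0.51 against 0.20. By role, 5 of 7 fibrous sheath genes, 6 of 11 axoneme genes, 4 of 4 Cypt genes, 3 of 9 acrosome genes, 3 of 8 regulators, 3 of 8 glycolysis genes, 2 of 11 sperm surface genes and 1 of 6 ion channel genes were called higher with the block, along with the 1 chromatin gene that passed the filter. In the outer dense fibre and kinase groups the counts were 0 of 3 and 0 of 5. These counts by role include the called genes that passed the filter only through MS-275 and so had to be higher. They are Cypt1, Cypt2, Cypt12, Fscn3 (fibrous sheath), Tekt3 (axoneme), Crisp2 (acrosome) and Adam18 (sperm surface). Differences between the roles were not tested.

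Cypt3 has relatives that code for similar theca proteins. Cypt2, listed as a pseudogene, had 0 and 0.00061 with solvent and 0.0237 and 0.0373 with MS-275, higher by 2.72 (adjusted p from limma 0.0581 without and 1.07e-05 with the block). Cypt4 had 0.00191 and 0 and then 0.0057 and 0.0197, higher by 1.47 (0.122 and 0.00366). Cypt12 was higher by 1.06 (0.114 and 0.00377) and Cypt1, listed at 0 with solvent, by 0.65 (0.109 and 0.0272), with at most 10 alignments in any library. Cypt1, Cypt2 and Cypt12 passed the filter only through the MS-275 libraries, where they are high, so their p-values are no support for a rise. Cypt14 and Cypt15 were listed at 0 in all 4. The Cypt genes are a family of similar sequences, and 84.9% of the 36-base words of Cypt3 occur once in the genome, so reads could be shared among them and their values are uncertain.

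The 5 largest rises among the further genes were those of Brdt, Cypt2, Meig1, Cabyr and Cox8c. Brdt, the testis-specific bromodomain protein that binds acetylated histones in spermatids, had 0.0302 and 0.0238 with solvent and 0.227 and 0.221 with MS-275, higher by 2.84 (SE 0.427; adjusted p from limma 0.0581 without and 1.72e-06 with the block). It was also the best covered of the 5, with 113 and 187 alignments and then 942 and 1309. Meig1, needed for the sperm tail, had 0 and 0.00161 and then 0.0277 and 0.0388, higher by 2.72 (0.0581 and 1.15e-05). Cabyr, a calcium-binding protein of the fibrous sheath, had 0.0122 and 0.006 and then 0.0885 and 0.0501, higher by 2.38 (0.0974 and 4.13e-05). Cox8c, a testis subunit of cytochrome c oxidase, had 0.0357 and 0.0295 and then 0.117 and 0.217, higher by 2.14 (0.0709 and 5.6e-05). All 5 were higher in both pairs, and in each the MS-275 values were above the solvent values. In the main fit none passed without the block. With the filter changed to a mean value of at least 0.01, Brdt, Cypt2 and Meig1 were called without it. With limma-voom on distinct positions these and Cabyr were called without it. Cypt2 and Meig1 reached the mean of 0.01, and the 10 positions, only through MS-275, so these calls are no support for their rise. The outcome depended on the settings, since over the alternatives the adjusted p of Brdt ran from 0.00122 to 0.156 without the block and from 2.57e-09 to 0.259 with it. Among the fits with the block the highest was reached with no filter on low values for all 5, at 0.259 to 0.269. Without the block the highest was 0.325 for Meig1, 0.272 for Cypt2, 0.444 for Cabyr and 0.39 for Cox8c.

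**Figure D4:**
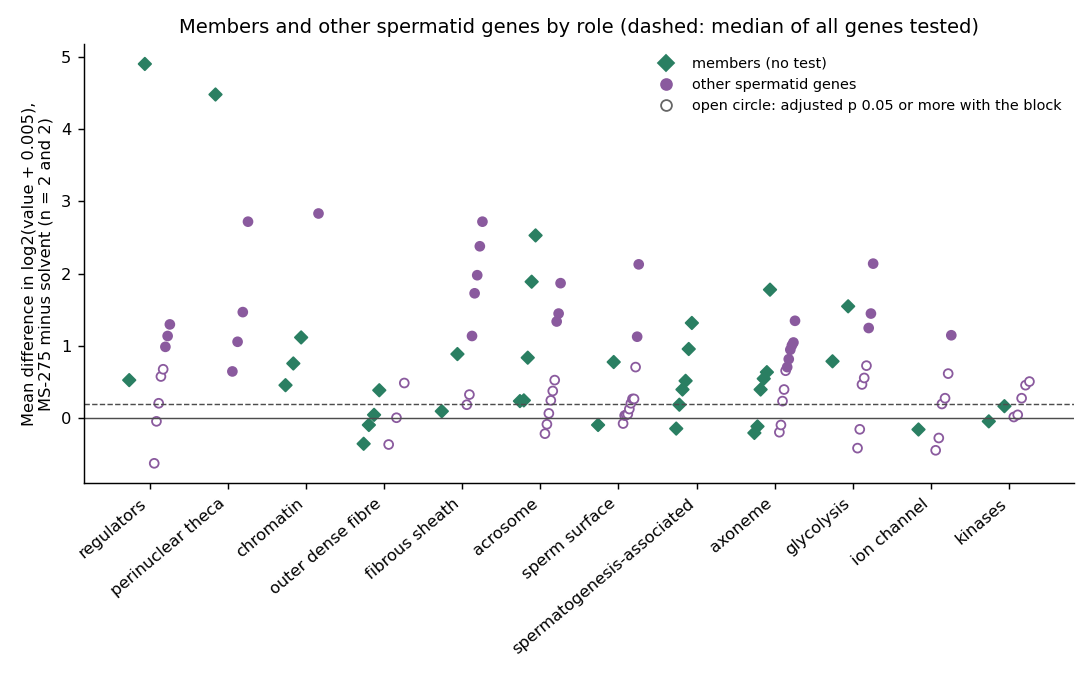
Mean difference in log2(value + 0.005) between MS-275 and solvent (n = 2 and 2) by role, members as green diamonds with no test and further spermatid genes as purple circles, filled where limma with the replicate block gave an adjusted p under 0.05; the dashed line is the median of all genes tested. Only genes that passed the filter are drawn. Those of the perinuclear theca and chromatin groups lie above the line, while those of the outer dense fibre and kinase groups reach at most 0.51. Cypt3 was chosen by its rise. Prm1, Cypt1, Cypt2 and Cypt12 passed the filter only through MS-275 and so had to be higher.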

How the data were processed

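Embryonic stem cells were kept with solvent or 5 µM MS-275 for 24 h, and RNA-seq libraries of 36-base reads without strand marking were mapped by the authors to mm9, while the aligner is not given in the sources used here. The signal values deposited by the authors are normalized expression values per gene from Genomatix, of unstated formula, 1 per library, with no pooling. Deposited alignment positions were counted on GENCODE M1 exons. Tables of the authors' own ratios and shortened tables were not used. Reads from overlapping genes on opposite strands cannot be told apart.

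Values were taken as log2(value + 0.005) for the 20336 genes that reached 0.001 in 2 or more libraries, and compared with limma 3.58.1 (lmFit and eBayes with a trend, two-sided, Benjamini-Hochberg over all genes tested, threshold 0.05) in R 4.3.3, without a block and, as an alternative, with the replicate number as a block. File headers give replicate 1 of both conditions the same name, and same-numbered libraries deviated together (correlation 0.764 over 20336 genes, which are not independent replicates). Genes named singly were members at 0.01 or more in any library, Spz1 and Cypt3, all Cypt genes, and the 5 further spermatid genes with the largest rise among those called with the block; 0 fell. Lower members are given by values only where they complete a role, chosen after their values were seen. The members and gene lists were chosen with earlier results of these data known. Distinct positions were fitted with limma-voom over 17923 genes with at least 10 positions in 2 or more libraries. Python 3.11.15, numpy 2.4.6, pandas 2.3.3 and matplotlib 3.10.9 were used for counts and plots, and the fits were tested on simulated data. Alternatives changed the pseudocount, filter, scaling, test and libraries.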

Additional observations from a re-analysis of the deposited data

How the results depend on the processing

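The difference changed sign for 6 members with small differences: Zpbp (-0.33 to 1.07 over the alternatives), Spata6 (-0.37 to 0.75), Spag16 (-0.05 to 0.86), Spag17 (-0.72 to 0.14), Tekt1 (-0.53 to 0.32) and Catsper2 (-0.65 to 0.08). Leaving out 1 library did so in each, and scaling did so for Spata6 (-0.08 with median ratios) and Zpbp (-0.24 with quantile normalization). Without a block 0 members and 0 further spermatid genes were called, and with the replicate block 13 and 28, or 7 and 21 without the genes that passed the filter only through MS-275, an alternative chosen after the data were seen. With the replicate block and a pseudocount of 0.001 the counts were 13 and 29, with 0.02 they were 12 and 26, with median-ratio scaling 13 and 27 higher and 1 further gene lower (Rfx2), and with quantile normalization 10 and 24 higher and 3 further genes lower (Aldoart1, Odf3b and Rfx2). Over all 20336 genes these fits, in the same order, called 4216, 3790, 3379 and 2936 higher and 1220, 1158, 2864 and 2961 lower. Quantile normalization moved the share of higher calls over all genes to 49.8% and the median of all genes to -0.03. With no filter limma called 0 of all genes with or without the block, although 3897 rises and 1305 falls had an unadjusted p under 0.05 with it. A mean value of at least 0.01 gave 3 and 3 calls without and 5 and 18 with the block, all higher. Over all 14740 genes tested there, 466 were called higher without and 2751 with the block. The 3 members called without it were Spz1 and Cypt3, chosen by this contrast, and Spaca1, which reached that mean only through MS-275. Distinct positions with limma-voom gave 7 and 19, and with the block 11 and 27 higher, with 1 member (Odf2) and 1 further gene (Rfx2) lower. Over all 17923 genes, 2594 were called higher and 884 lower without the block, and 5094 and 2357 with it. As stated above, several of the 7 and 19 passed that filter only through MS-275. The median change of the members and of the further genes, on the log2 scale, was 1.05 and 0.97 with a pseudocount of 0.001, 0.17 and 0.22 with 0.02, 0.40 and 0.27 with no filter, 0.54 and 0.84 with the mean of at least 0.01, 0.34 and 0.39 with median-ratio scaling, and 0.16 and 0.18 with quantile normalization, with the block and without it, and 0.71 and 0.97 for distinct positions (0.76 and 0.98 with the block). Leaving out 1 library gave medians of 0.27 to 0.72 for the members and 0.38 to 0.65 for the further genes. The lone library left in a group is then assumed to vary like the others, so no calls are given for these fits. In them the changes of Spz1 and Cypt3, chosen by this contrast, ran from 4.57 to 5.22 and from 4.11 to 4.85. With values under 0.01 set to 0.01, 4 members were 2-fold higher in both pairs in place of 13. The share of all genes at that floor is not given, so nothing is read from this count. With values under 0.001 set to 0.001, 2 members were 2-fold lower in pair 1 alone (Acrv1 and Theg) and 1 in pair 2 alone (Odf1). Each of these had at most 0.0028 in any library. Members 2-fold higher in 1 pair alone were Odf3, Spata3 and Tekt2 (pair 1) and Tnp1, Tnp2, Zpbp, Zpbp2 and Gapdhs (pair 2). Shares of all genes for single pairs are not given, so nothing is read from these either. The causes were not tested. Depth limits the 19 members with under 20 alignments.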
